A study of Mus musculus with 2 samples.

Results

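The linker histone H1 genes of the mouse were followed in open-chromatin maps of cells with and without silencing of Hmgb1. The set was the 9 coding genes H1f0, H1f1, H1f2, H1f3, H1f4, H1f5, H1f6, H1f7 and H1f10, chosen by name, of 21883 coding genes in the gene table used. All 9 were found in it. For each gene, every summit and every nucleosome-free region in the gene or within 5 kb of it was taken from both libraries. The material was AB22, a mouse malignant mesothelioma line. Both groups carried a pTRIPZ lentiviral vector with a hairpin RNA that doxycycline switches on, put in at a multiplicity of infection of 20 and selected with 4 µg/mL puromycin. In shCTRL the hairpin was a control, and in shHMGB1 it was directed against Hmgb1, the gene of an abundant DNA-bending chromatin protein. Both received 1 µM doxycycline and were used 7 to 10 days later, and no radiation dose was given for either. Each group was 1 library, so replicate spread is unknown and differences between the libraries carry no p-value. The level of HMGB1 that remained in the cells was not analysed here.

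Linker histones bind where DNA enters and leaves the nucleosome and help to fold the fibre. HMGB proteins bind near the same place, and the interplay of these proteins on nucleosomes is well known. The genes fall into classes. H1f1 to H1f5 are replication-dependent: they lie in the histone clusters, lack introns, are transcribed in S phase, and give mRNAs that end in a stem-loop and not in a poly(A) tail. H1f0 and H1f10 are replacement genes that are expressed outside S phase as well, with H1f0 typical of cells that have stopped dividing. H1f6 and H1f7 are made in male germ cells.

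Open chromatin was measured by ATAC-seq, a method that reads where the enzyme Tn5 can insert sequencing adapters into exposed DNA. A summit is the highest point of a listed peak, or of a part of one. Its pileup is the peak caller's count there, recovered here as a whole number from the deposited folds. The counts are called fragments below. The caller's settings are not given, so counts of whole fragments and of read ends cannot be told apart. The pileup expected by the peak caller was 2.79 fragments in shCTRL and 1.69 in shHMGB1 and is called background below. The lowest pileups listed were 10 and 7. A pileup therefore weighs more in shHMGB1, and height over background depends on this scale. Intervals are exact Poisson or conditional binomial 95% intervals of the counting error only, with each count taken as independent. They would be too narrow if a fragment was counted more than once. In bulk libraries fewer cells with an open site and less opening per cell cannot be told apart. The line was checked against its markers at gene starts: of 12 mesothelial markers Pdpn had a summit there, in both libraries (16 and 13 fragments), and the 11 others, Msln, Wt1 and Calb2 among them, had none. Among coding genes of known strand, 48.0% in shCTRL and 45.3% in shHMGB1 had a summit within 250 bases of the start. Of 9 leukocyte, 7 epithelial and 5 endothelial markers 1 each had a start summit in shCTRL, Cd68 (14 fragments), Krt14 (13) and Tek (13). In shHMGB1 these were Lyz2 (11), Krt14 (10) and no endothelial marker, so the leukocyte marker differed between the libraries. At gene starts the markers thus did not set the line apart as mesothelial.

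The promoters are shown first because the summits at the gene starts lie on them. Each line gives the 150 bases before the annotated start, 5′ to 3′ along the gene, from RefSeq on GRCm38.p6. Capitals in the H1f1 to H1f6 lines mark, from left to right, the linker histone box AAACACA, the CCAAT element ACCAATCA and the TATA element TATAAA or TATATA, all read along the gene. In the H1f10 line they mark a GC box, GGGCGG, on the opposite strand. GC boxes in the H1f1, H1f4, H1f5 and H1f6 lines are left in small letters. The H1f0 line holds none of these motifs in full.
H1f1 (chr13:23763518-23763667, plus strand): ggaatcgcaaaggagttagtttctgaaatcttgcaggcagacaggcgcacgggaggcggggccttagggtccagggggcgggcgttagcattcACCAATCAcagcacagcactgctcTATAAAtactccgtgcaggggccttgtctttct
H1f2 (chr13:23738657-23738806, plus strand): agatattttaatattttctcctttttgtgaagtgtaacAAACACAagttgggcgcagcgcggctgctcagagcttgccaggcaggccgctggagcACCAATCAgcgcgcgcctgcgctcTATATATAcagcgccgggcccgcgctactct
H1f3 (chr13:23554882-23555031, plus strand): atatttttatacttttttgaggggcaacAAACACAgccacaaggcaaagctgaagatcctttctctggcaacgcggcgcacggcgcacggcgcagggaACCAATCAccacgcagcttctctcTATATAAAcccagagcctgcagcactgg
H1f4 (chr13:23622559-23622708, minus strand): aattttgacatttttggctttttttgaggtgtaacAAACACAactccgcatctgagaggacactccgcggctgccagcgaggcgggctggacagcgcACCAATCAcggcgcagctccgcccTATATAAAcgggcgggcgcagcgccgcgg
H1f5 (chr13:21780626-21780775, minus strand): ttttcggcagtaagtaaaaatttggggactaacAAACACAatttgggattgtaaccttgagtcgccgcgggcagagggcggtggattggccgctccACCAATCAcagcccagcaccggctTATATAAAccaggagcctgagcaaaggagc
H1f6 (chr13:23695661-23695810, plus strand): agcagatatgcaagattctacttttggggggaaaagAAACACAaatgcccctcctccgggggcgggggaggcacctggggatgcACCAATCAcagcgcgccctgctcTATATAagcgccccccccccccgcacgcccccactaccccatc
H1f0 (chr15:79028062-79028211, plus strand): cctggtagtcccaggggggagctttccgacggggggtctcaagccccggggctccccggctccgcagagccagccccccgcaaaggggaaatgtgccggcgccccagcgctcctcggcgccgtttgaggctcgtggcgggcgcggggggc
H1f10 (chr6:87981483-87981632, minus strand): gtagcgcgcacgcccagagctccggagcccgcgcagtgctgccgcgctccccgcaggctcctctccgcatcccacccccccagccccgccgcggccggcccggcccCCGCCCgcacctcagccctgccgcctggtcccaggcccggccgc

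All 9 genes matched the promoter table, which holds 250 bases before and 50 after each start. Searched on both strands of these windows, the linker histone box was found at H1f2, H1f3, H1f4, H1f5 and H1f6. It lay between positions -122 and -106, counted from the start as 0. The CCAAT element was found at these genes and at H1f1, from -57 to -45 except at H1f6, where it began at -66. The TATA element followed at the same 6 genes. The GC box was found at 6 of the 9 genes, H1f0, H1f1, H1f4, H1f5, H1f6 and H1f10. H1f1, H1f0, H1f10 and H1f7 had no match to the linker histone box, which says only that these letters are not in the window. Of all 32851 windows 7.18% held the linker histone box, 2.13% the CCAAT element, 17.1% a TATA element and 35.7% the GC box. Among 52 core histone genes the shares were 7.69%, 32.7%, 63.5% and 34.6%, so that the CCAAT and TATA elements are common in core histone promoters too. The first 3 occurred together in 16 windows, each of a different gene, and 5 of them were linker histone genes. The CCAAT element contains the common CCAAT letters, and the forms of the TATA element can overlap. The longest stretch shared by any of 36 pairs of these windows was 15 bases, between H1f2 and H1f4. No window of another gene shared 25 bases with any of them, other than that of Gm5577, which overlaps that of H1f10.

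Of the 9 genes, 8 had a summit within 5 kb in shCTRL, against 73.0% of all coding genes, and 7 in shHMGB1, against 71.0%. The same 7 genes had one in both libraries (background 69.0%). H1f10 had one in shCTRL alone (4.02%), 0 genes had one in shHMGB1 alone (1.97%), and H1f7 had none. The H1f10 summit had a deposited −log10 q of 4.98, and with at least 5 required 7 genes had a summit in each library. With 9 genes these shares are near those of coding genes in general. The highest pileup within 5 kb was 45 at H1f0, 42 at H1f5, 37 at H1f2, 36 at H1f3, 33 at H1f4, 31 at H1f6, 28 at H1f1 and 15 at H1f10 in shCTRL. In shHMGB1 the order was H1f2 (43), H1f3 (40), H1f4 (35), H1f0 (32), H1f5 (30) and, with 25 each, H1f1 and H1f6. Not all of these summits are the genes' own. Those of H1f3 lay at the start of H4c6 and those of H1f1 next to H3c1. In shHMGB1 those of H1f0 and H1f6 lay at the starts of Gcat and H4c3. The counting intervals of neighbours in either order overlap: the interval was 32.8 to 60.2 for the 45 fragments of H1f0 and 25.2 to 49.8 for the 36 of H1f3. Among the coding genes with a listed summit, the median of the highest pileup was 44 in shCTRL and 40 in shHMGB1. Of the linker histone genes with one, 7 of 8 lay below it in shCTRL and 5 of 7 in shHMGB1. The tallest, H1f0 in shCTRL and H1f2 in shHMGB1, were above 50.8% and 53.0% of these genes.

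**Figure D1:**
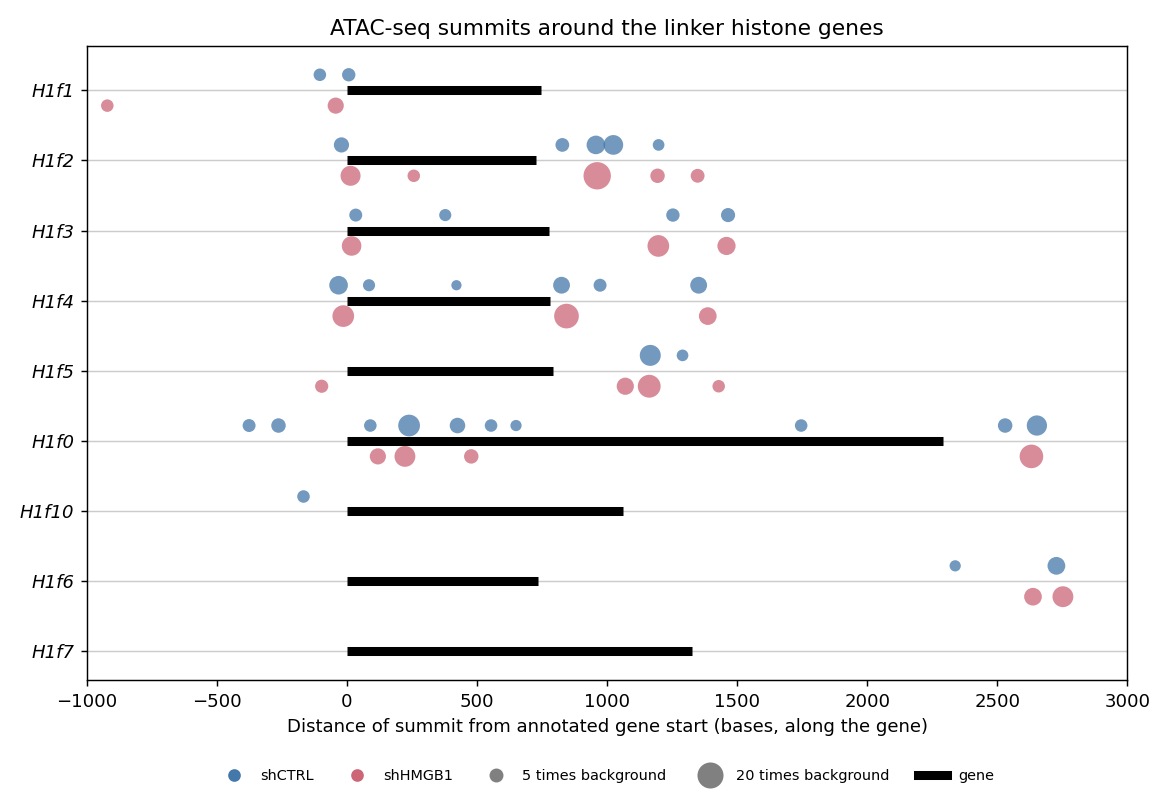
Summits from 1000 bases before to 3000 bases after the start of each linker histone gene, along the gene. Rows are genes, black bars are the annotated genes, circles above a bar are shCTRL and below it shHMGB1, and circle area is height over the background of the library. Summits sit at both ends of H1f2, H1f3 and H1f4, mainly past the end of H1f5, and H1f7 has none.

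H1f2, H1f3 and H1f4 shared a layout: a site at the start and a second one just past the annotated end. H1f5 had the second site in both libraries and a low start summit in shHMGB1 alone. H1f2 (gene 50708, chromosome 13, 23738807 to 23739531) shows it most plainly. At its start, the summit held 22 fragments (13.8 to 33.3) at -21 in shCTRL and 23 (14.6 to 34.5) at 14 in shHMGB1. Past the end lay a separate peak, which spanned 23739573 to 23740043 in shCTRL and began at 23739535 in shHMGB1. It held 37 (26.1 to 51.0) and 43 (31.1 to 57.9) fragments at its highest summit in shCTRL and shHMGB1, 300 and 238 bases beyond the gene. The site past the end was the higher of the pair in both libraries, by 1.68 times (0.966 to 2.99) in shCTRL and 1.87 times (1.10 to 3.25) in shHMGB1. The interval includes no difference in shCTRL and leaves it out in shHMGB1. The gene table has no other gene within 5 kb of H1f2.

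H1f3 (gene 14957, 23555032 to 23555807) was lower at both sites in shCTRL. Its start summit held 16 fragments (9.15 to 26.0) at 34 in shCTRL and 22 (13.8 to 33.3) at 18 in shHMGB1. Past the end there were 17 (9.90 to 27.2) and 27 (17.8 to 39.3) fragments, 478 and 422 bases beyond the gene, in a peak with a further summit of 19 in each library. The 2 sites differed by less than their counting error, at 1.06 times (0.505 to 2.25) and 1.23 times (0.673 to 2.26).

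H1f4 (gene 50709, minus strand, 23621777 to 23622558) held 33 fragments (22.7 to 46.3) at -32 in shCTRL and 27 (17.8 to 39.3) at -14 in shHMGB1. Of the replication-dependent members it had the highest start summit in both libraries. Past its end stood 27 (17.8 to 39.3) and 35 (24.4 to 48.7) fragments, 44 and 63 bases beyond the gene. So the start was the higher site in shCTRL and the site past the end in shHMGB1, each within counting error, at 0.818 times (0.473 to 1.40) and 1.30 times (0.762 to 2.23). The start of H2bc6, a core histone gene, lies 639 and 620 bases from these summits and had a peak of its own, with 27 and 18 fragments.

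H1f5 (gene 56702, minus strand, 21779832 to 21780625) was uneven. Past its end the summit held 42 fragments (30.3 to 56.8) in shCTRL and 30 (20.2 to 42.8) in shHMGB1, 373 and 369 bases beyond the gene. At its start no summit was listed in shCTRL, and 10 fragments (4.80 to 18.4) were listed at -97 in shHMGB1. There the site past the end was 3.0 times higher (1.43 to 6.88). A start summit of up to 9 fragments could have gone unlisted in shCTRL, if every qualifying site was listed. Against 9, the log2 ratio of shHMGB1 over shCTRL, scaled to the median coding gene, would be 0.30 (-1.16 to 1.77). Its promoter carries the linker histone box, the CCAAT element and the TATA element, like those of H1f2, H1f3 and H1f4.

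H1f1 (gene 80838, 23763668 to 23764412) had the start site alone. It held 17 fragments (9.90 to 27.2) at 7 in shCTRL and 15 (8.40 to 24.7) at -43 in shHMGB1, with a second shCTRL summit of 15 at -104. No summit was listed past its end in either library. The taller sites of its window, 28 and 25 fragments, lay next to H3c1, at -1238 and -1237.

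**Figure D2:**
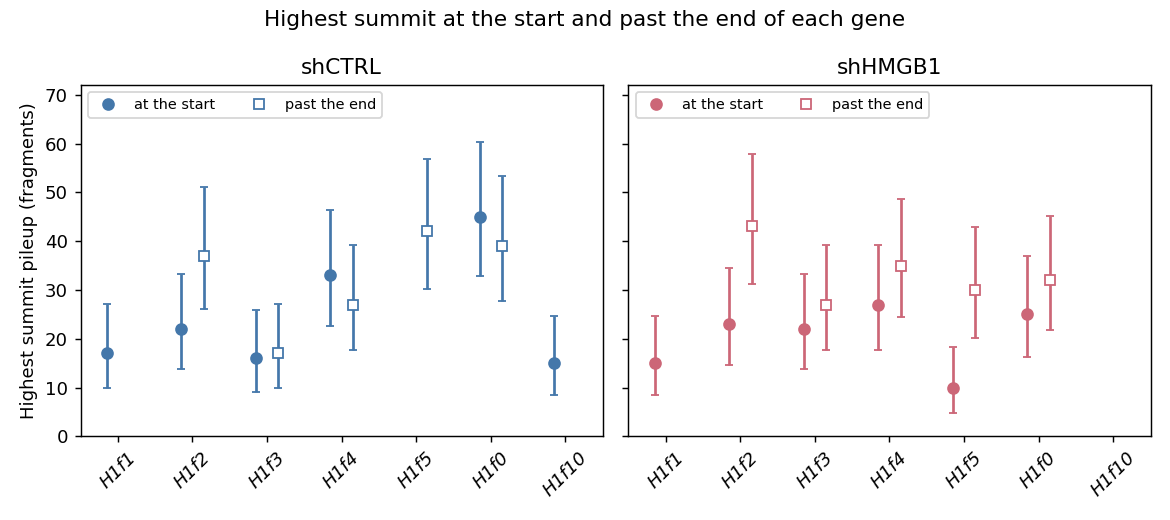
Highest summit pileup in fragments within 250 bases of the start (filled circles) and 1 to 500 bases past the end (open squares) of 7 linker histone genes, with exact Poisson 95% intervals, shCTRL on the left and shHMGB1 on the right. A missing symbol means that no summit was listed. The site past the end of H1f2 is the higher one in both libraries (37 against 22, and 43 against 23); the square of H1f0 is the start of Gcat.

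Sites past the end were then counted over other genes, among the 17491 coding genes whose strand the promoter table gives. The windows, 250 bases on either side of the start and 1 to 500 bases past the end, were chosen after the members' values were seen, so the members' own counts are a description. Of the 5 replication-dependent linker histone genes, 4 had a summit past the end in each library (H1f2, H1f3, H1f4 and H1f5), against a background of 4.87% in shCTRL and 3.71% in shHMGB1. A summit at the start was found for 4 and 5 of them, against 48.0% and 45.3%. Core histone genes of up to 1000 bases, which share the short intronless form, had a start summit in 41 and 42 of 49 and one past the end in 8 and 13 of 49. The site past the end was the higher one at 3 of the 5 linker histone genes in shCTRL and 4 of 5 in shHMGB1. Among the 49 core histone genes this was so at 3 and 4, and among all coding genes at 2.35% and 1.96%. Some stretches past an end hold another gene's start or come within 250 bases of one, H1f4 among them. Without those, 3 of 4 linker histone genes and 4 of 43 core histone genes in shCTRL, and 3 of 4 and 9 of 43 in shHMGB1, had a summit past the end. With 5 genes and 1 library per group the difference between the histone classes was not tested.

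**Figure D3:**
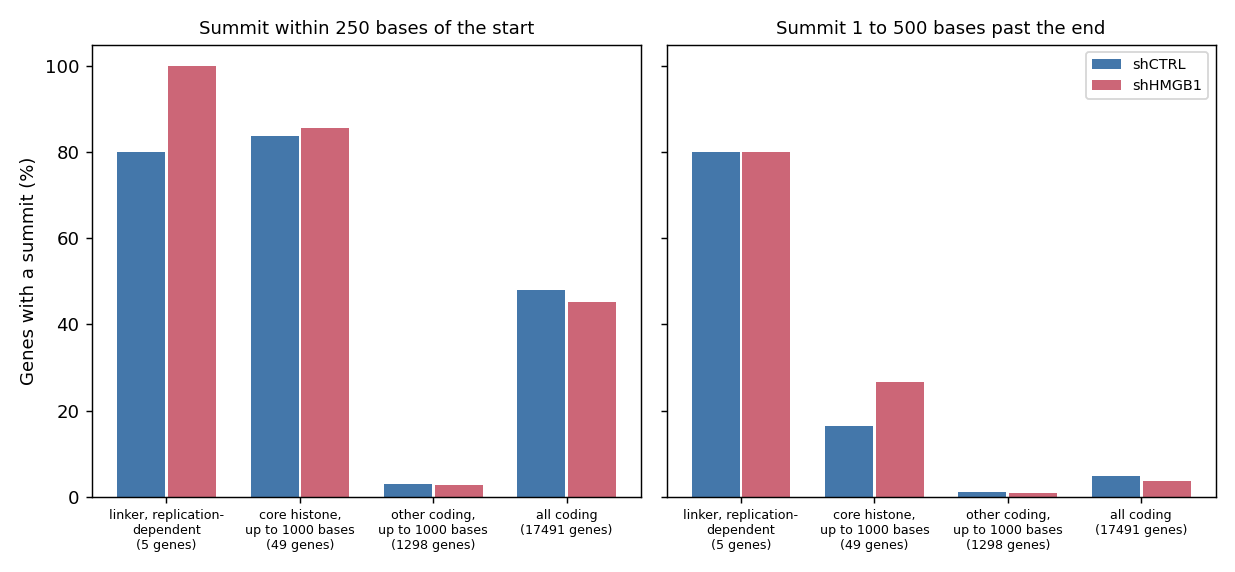
Percentage of genes with a summit within 250 bases of the start (left) and 1 to 500 bases past the end (right), in 4 sets of genes, for shCTRL and shHMGB1. The sets are replication-dependent linker histone genes, core histone genes and other coding genes of up to 1000 bases, and all coding genes. Replication-dependent linker and core histone genes have start summits in 80.0% to 100.0% of genes, while past the end the linker genes stand at 80.0% in both libraries and the core genes at 16.3% and 26.5%.

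The replacement genes differed from this layout and from each other. H1f0 (gene 14958, chromosome 15, 79028212 to 79030504) had a peak of 1100 bases with 7 summits over its start in shCTRL, the widest peak of any member window there. In shHMGB1 the peak had 485 bases and 3 summits. Its highest summit held 45 fragments (32.8 to 60.2) at 239 in shCTRL and 25 (16.2 to 36.9) at 223 in shHMGB1, inside the gene and not on the promoter printed above. That is 16.1 and 14.8 times background. The other high site of its window, with 39 and 32 fragments, was the start of Gcat, an enzyme gene of threonine breakdown, 10 and 31 bases from its annotated start. A narrow peak of 82 bases inside H1f0, with 15 fragments, was listed in shCTRL alone.

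H1f10 (gene 243529, chromosome 6, minus strand, 87980421 to 87981482) had 1 summit, of 15 fragments (8.40 to 24.7) at -169 in shCTRL, and none in shHMGB1. The summit lay 32 bases from the start of Gm5577, a noncoding RNA gene on the opposite strand. In shHMGB1 up to 6 fragments could have gone unlisted, if all sites that reached 7 were listed. At 6 fragments the log2 ratio, scaled to the median coding gene, would be -1.18 (-2.83 to 0.27), an interval that includes no difference.

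The germ cell genes had no listed site of their own. Neither H1f6 (gene 107970, chromosome 13, 23695811 to 23696545) nor H1f7 (gene 70069, chromosome 15, 98255982 to 98257307) had a summit within 1 kb in either library. H1f6 carries the linker histone box, the CCAAT element and the TATA element, like H1f2, H1f3, H1f4 and H1f5. The summits of its window belonged to the start of H4c3, with 30 fragments in shCTRL and 25 in shHMGB1, and to a stretch over 4 kb past its end, where the highest held 31 and 19. At the starts of 7 germ line markers, Ddx4, Dazl, Prm1, Prm2, Tnp1, Sycp3 and Acrv1, no summit was listed in either library.

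Between the libraries, the pileups at linker histone genes differed by less than their counting error at every matched site of the genes themselves, on a scale set by the median coding gene. Summits of both libraries within 150 bases of each other were taken as 1 site, and log2 ratios of shHMGB1 over shCTRL were set against the median of 14696 coding genes, whose raw log2 ratio was -0.14. For each gene the matched site with the highest sum of both pileups within 5 kb was taken. There the ratios were 0.53 (-0.16 to 1.23) for H1f2, 0.52 (-0.25 to 1.30) for H1f4, 0.30 (-0.39 to 0.99) for H1f3 and -0.02 (-0.86 to 0.81) for H1f1. They were -0.12 (-0.94 to 0.70) for H1f6, -0.14 (-0.86 to 0.57) for H1f0 and -0.34 (-1.07 to 0.37) for H1f5. All of these intervals include no difference, and none of the 7 genes passed 1.5-fold, against 4.78% of genes above and 9.36% below. Their median was -0.02. The count past 1.5-fold depends on the choice of site. With the matched site highest in shCTRL, and the median gene taken the same way, H1f2 passed 1.5-fold upward at 0.60 (-0.09 to 1.30) and H1f0 downward at -0.63 (-1.40 to 0.11), against 4.57% and 10.8% of genes. H1f4 then stood at -0.07 (33 and 27 fragments at its start) and H1f6 at -0.49. With the matched site highest in shHMGB1, none of the 7 passed, against 4.99% and 7.48%. Each of these intervals includes no difference as well. The share of all coding genes whose interval does so is not given here, so these interval counts are a description only. The scale matters too: the expected pileups had a log2 ratio of -0.73, and set against them all 7 genes stood above 0, from 0.24 at H1f5 to 1.11 at H1f2. On that scale the intervals of H1f2 (0.42 to 1.81), H1f4 (0.34 to 1.88) and H1f3 (0.20 to 1.57) left out 0. These 3 of 7 genes also passed 1.5-fold there, as did 7342 of 14696 coding genes. The same counts of genes lay above the median gene on the first scale, so they add nothing to it. By the sum of both pileups, the site taken was the start of a neighbour at H1f3, H1f6 and H1f0. At H1f1 it lay between genes, next to H3c1, whose strand the promoter table does not give. Whether that site is the start of H3c1 was therefore not settled. At H1f0, the start of Gcat (39 and 32) was taken over the gene's own start (45 and 25). Within 1 kb of the gene, 6 genes had a matched site, with a median of 0.26, and H1f3 stood at 0.83, past 1.5-fold, against 4.98% of genes above and 9.73% below.

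The sites on the genes themselves give the finer view. Of 12 matched sites at the start, in the gene or past the end, 7 were higher in shHMGB1 and 5 lower, and the interval of every one includes 0. Over all 26 matched sites of the windows the balance was the other way, with 10 higher and 16 lower, 2 past 1.5-fold upward and 5 downward. At the starts the ratios ran from -0.70 (-1.47 to 0.03; 45 and 25 fragments) at H1f0 to 0.60 (-0.39 to 1.63; 16 and 22) at H1f3. Past the ends they were 0.81 (-0.12 to 1.78; 17 and 27) at H1f3, 0.53 and 0.03 at H1f2 and 0.52 at H1f4, while the H1f5 ratio had the other sign, at -0.34. The H1f2 ratio of 0.53 sets the 43 fragments of shHMGB1 against the nearer summit of 33 in shCTRL, and against the higher one of 37 it was 0.36 (-0.31 to 1.04). Among these 12 sites, 2 passed 1.5-fold upward, both at H1f3, and 2 downward, both at H1f0. Of all 105356 matched sites of the genome 6.38% did so upward and 16.5% downward. The single site of the 26 in the windows whose interval left out 0 belonged to a core histone gene, the start of H3c11 near H1f5, with 41 and 21 fragments (-0.82, -1.65 to -0.03). The share of all matched sites whose interval includes 0 is not given here, so these interval counts are a description only.

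**Figure D4:**
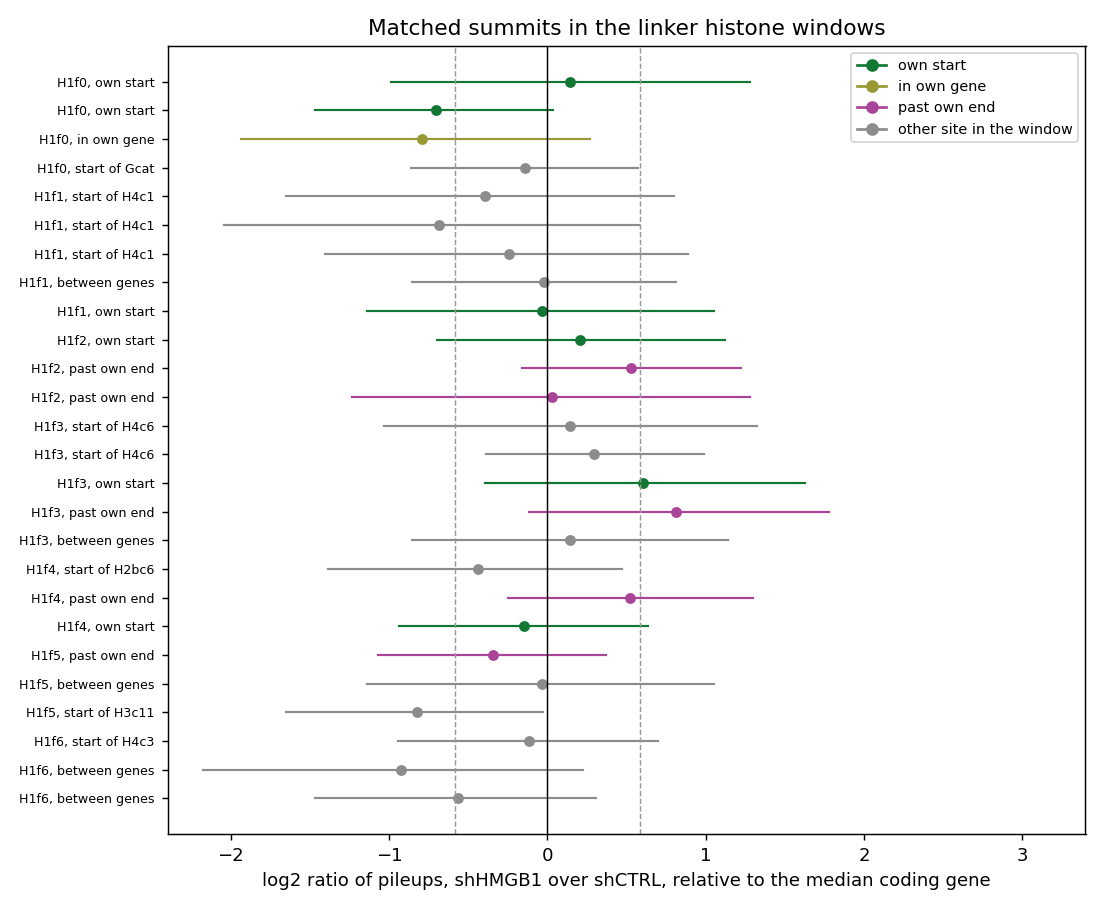
Log2 ratio of pileups, shHMGB1 over shCTRL, at the 26 matched sites within 5 kb of linker histone genes, relative to the median coding gene, with conditional binomial 95% intervals. Colours give the place of the site, and dashed lines mark 1.5-fold. All 12 intervals at the genes' own sites cross 0; sites past the end range from -0.34 to 0.81.

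Nearby genes without histones were taken as a local scale. Within 1 Mb, the median log2 ratio of non-histone genes was -0.14 around H1f1, H1f2, H1f4 and H1f6 (8 to 10 genes), -0.16 around H1f3 (7 genes), -0.34 around H1f5 (11 genes) and -0.38 around H1f0 (53 genes), on the raw scale on which the median gene stood at -0.14. Against these, H1f2 stood at 0.52, H1f4 at 0.51, H1f3 at 0.31, H1f0 at 0.09, H1f1 at -0.03, H1f6 at -0.13 and H1f5 at -0.14. The sites are again those of the highest summed pileup, so the H1f0 value is that of the start of Gcat (39 and 32 fragments). Gcat is itself a non-histone gene within 1 Mb. The own start of H1f0 (45 and 25) was not set against this scale. Around H1f5 and H1f0 the median of the nearby genes lay below that of all coding genes.

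Nucleosome-free regions were sparser. The deposited lists gave 5 in the windows in shCTRL and 4 in shHMGB1, at 4 and 3 of the 9 genes, against 41.1% and 38.1% of all coding genes. H1f1 had a region in both (background 29.8%). No region of one list overlapped one of the other here, while in the whole lists 39.6% of shCTRL regions and 43.8% of shHMGB1 regions had an overlap. All 5 shCTRL regions lay on the genes' own sites. At H1f2 there were 2, of 138 bases over the start and of 240 bases past the end, with deposited values of 0.0185 and 0.0419, read from the layout of the list as mean nucleosome occupancy on a scale from 0 to 1. The region at the start ran from -116 to 21 and took in the linker histone box, the CCAAT element and the TATA element printed above. At H1f1 a region of 103 bases (0.0937) ran from -99 to 3 and took in a GC box and the CCAAT and TATA elements. H1f0 had one of 364 bases at its start (0.0812), and H1f5 one of 256 bases past its end (0.0701), over the 42-fragment summit.

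The 4 regions of shHMGB1 lay elsewhere. They were at H4c6 near H1f3 (293 bases, 0.0178), in H4c1 and next to H3c1 near H1f1 (95 and 151 bases, 0.00648 and 0.0183), and 4801 bases past the end of H1f6 (253 bases, 0.0394). The H1f2 sites in shHMGB1 had summits as high as in shCTRL (23 and 43 fragments) without a listed region. The highest mean occupancy in either list was 0.1. The region lists give values at listed regions only, and the part of depth in the absence of a region was not tested.

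Core histone genes and genes that handle histones give the setting. Of 57 core histone genes 52 had a summit within 5 kb in both libraries, against 69.0% of all coding genes. The median log2 ratio of the core histone genes was 0.05, or 0.03 over their 25 distinct sites. Of these genes 10 passed 1.5-fold upward and 0 downward, but the 10 share 4 sites, of the 25. Among all coding genes 4.78% passed upward and 9.36% downward. The highest 3, H2ac4, H2bc3 and H3c3, share 1 site with 26 and 45 fragments (0.94, 0.21 to 1.69), and the lowest 3, H2ac11, H2bc11 and H4c9, another with 52 and 33 (-0.51, -1.19 to 0.15). Of 24 genes for expression of replication-dependent histones, or for binding or phosphorylation of linker histones, all had a summit in both libraries (background 69.0%). The highest in shCTRL were Hmgb2 (225 and 262), a relative of the silenced gene, Npat (152 and 114), the coactivator of histone genes, and Cdk2 (114 and 111), a kinase that acts on linker histones and on NPAT. Cstf2 encodes a cleavage factor that also takes part in histone mRNA processing. It was the 1 gene of the list past 1.5-fold, with 72 and 102 fragments (0.65, 0.20 to 1.10). Intervals also left out 0 at Hmgb2, at 0.36 (0.10 to 0.63), and in the other direction at Cpsf3, with 88 and 56 fragments (-0.51, -1.02 to -0.01). The share of all coding genes with such intervals is not given here. The list median was 0.07.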

How the data were processed

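ATAC-seq of 1 shCTRL and 1 shHMGB1 library of AB22 cells was analysed, grouped by the silencing label. Per the submitters' processing notes, Trimmomatic 0.32, BWA 0.7.5-r404, SAMtools, bedtools and MACS2 were used with mm10 (GRCm38). The sources used here give neither settings nor the caller of nucleosome-free regions. The deposited peak lists give a score, a fold (ratio of pileup to expected pileup) and −log10 p and q per summit. The deposited region lists hold occupancy, read as a fraction, and densities, read as signal, from their layout and not from a header.

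Pileups, called fragments here, were recovered from the deposited folds as (pileup + 1)/(expected + 1). All 180632 and 156812 summits were whole within 0.000254, and −log10 p matched a Poisson tail within 0.000127 where under 200. Read totals were not given, so depth is known only through the expected pileups. Summits without a position (194 and 155) were left out. Genes came from RefSeq GRCm38.p6. Matched summits lay within 150 bp, and the fold used is 1.5. The scripts (Python 3.11.15, SciPy 1.17.1) were tested on simulated data. Without molecular identifiers, fragments may be copies of each other, and intervals cover counting error only. Members, lists and windows were chosen with earlier results of these data known. Named were all members, neighbours at described peaks, and core histone genes with the 3 highest and 3 lowest ratios. Handling genes were named if past 1.5-fold, listed in 1 library, among the 3 highest or with an interval that left out 0.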

Additional observations from a re-analysis of the deposited data

How the results depend on the processing

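Alternatives were other windows (1 and 2 kb), stricter listing (−log10 q of 5 or 10), matching within 50 or 500 bp, an overlap of 50% and other references for ratios. The ratios of the 7 genes that have one stayed inside their counting intervals in the settings run on ratios, which were 1 kb windows (no value for H1f6), both matching distances, the other references and, added later, the site highest in 1 library. The 2 kb windows, stricter listing and overlap were run on counts only. With 1 kb and 2 kb windows the nucleosome-free regions of shHMGB1 fell from 4 to 0 and 1, since they lie farther from the members. Set against the expected pileup in place of the median gene, the median ratio became 0.57 for linker histone genes (from -0.02), 0.64 for core histone genes (from 0.05) and 0.66 for handling genes (from 0.07). At 50 bp matching the handling median was -0.002. The expected-pileup scale shifts every gene by the same amount. On it H1f0, H1f1, H1f5 and H1f6 turned from lower to higher, at 0.44, 0.57, 0.24 and 0.47. H1f0 (0.09, measured at the start of Gcat) set against genes within 1 Mb, and H1f1 (0.13) and H1f6 (0.03) set against genes of like height, also moved above 0. With the site highest in shCTRL H1f1 moved to 0.06 and H1f4 to -0.07. With at least 50% overlap 17 and not 22 of 25 shCTRL peaks were shared. Sites past the end, counted to 1000 bp (added after the data were seen), stayed at 4 of 5 genes, but rose from 8 to 13 and from 13 to 19 of 49 core histone genes and to 8.20% and 6.56% of all coding genes (from 4.87% and 3.71%). The H1f2 ratio past the end was 0.36 in place of 0.53 with the highest summit of each library, also added later. No paired analysis was possible because each group has 1 library.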
